A study of Mus musculus with 2 samples.

Results

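The receptors described here are 9 G protein-coupled receptors for hormones and neurotransmitters: *Mc5r*, *Avpr1a*, *Adra1a*, *Adra2a*, *Chrm2*, *Chrm3*, *Ednra*, *Ednrb* and *Agtr2*. They were chosen by gene name, and all of their probes were used, which gave 11 of 39429 probes and 9 of 29924 gene names on the array. The choice was made with the change under IWP-2 in these arrays known, so that change is described for the receptors and not tested. Wild-type NMRI ureters were explanted at P0 and kept on transwell membranes for 18 h in medium with serum. The medium held either 5 µM IWP-2, an inhibitor of the acyltransferase porcupine that blocks the secretion of WNT ligands, or the solvent DMSO as control. RNA of IWP-2-treated and control ureters was hybridised together on 2 two-colour arrays. Each channel was 1 pool of ureters, female in replicate 1 and male in replicate 2. The dyes were swapped between both arrays, so sex and dye orientation cannot be told apart.

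These receptors sit in the cell membrane and pass a signal from an extracellular ligand to heterotrimeric G proteins inside the cell. Depending on the G protein, cyclic AMP rises or falls or calcium is released, and in smooth muscle this sets the tone of contraction. In the urinary tract, adrenergic, muscarinic, endothelin and angiotensin receptors are known for their action on smooth muscle, and *Agtr2* is known for its role in the development of the kidney and the ureter.

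The arrays gave a usable signal for most of the spots, with 68.3% to 69.8% of spots well above background in each channel and 0 saturated spots. Per array, 3.22% to 3.32% of spots carried an outlier flag. The number of arrays limits the precision of every value below. *Axin2*, a feedback target of canonical WNT signalling, had a signal of 181 in control and 42.2 with IWP-2 in replicate 1, and of 154 and 46.7 in replicate 2. *Porcn*, which encodes porcupine, was at 1791 and 1696 in replicate 1 and at 1920 and 1915 in replicate 2. *Xist* lay at the floor of 15 in the male pools and *Ddx3y* in the female pools, which matches the labelled sex. Markers of urothelium, smooth muscle, fibroblasts, endothelium, macrophages and neurons were all well above background in every channel (8 of 8, 7 of 7, 7 of 7, 4 of 4, 4 of 4 and 5 of 5), as were 3 of 4 Schwann cell markers. Of 5 markers of kidney tubules and podocytes, 0 were well above background in every channel.

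Of the 9 receptors, 7 had a probe well above background, and 6 had a control signal over 100 in each array. By the filter of the study, a control signal over 100 and a change of at least 1.5-fold in the same direction in each array, 3 receptors were lower with IWP-2 (*Mc5r*, *Avpr1a* and *Adra2a*) and 0 were higher. The thresholds are those of the study. They were applied here to each array, after loess and with the brightest probe of a gene, so the counts differ from those the study reports. Over all 14051 genes with such a control signal, the filter called 0.363% lower and 0.0783% higher, 0.441% in either direction. As the receptors were chosen on this contrast, nothing is read from the difference between both shares. The median of the mean log2 change was −0.32 over the 6 receptors and −0.01 over the 14336 genes with a mean signal over 100 in at least 1 condition. For 90% of the latter the mean log2 change lay between −0.22 and 0.22. Nothing is read from the difference between both medians either. The median of the receptors lies in a gap between *Adra2a* (−0.72) and *Ednra* (0.07) and describes no single receptor. The arrays held RNA of whole ureters, so fewer cells of a type and less RNA per cell cannot be told apart.

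**Figure D1:**
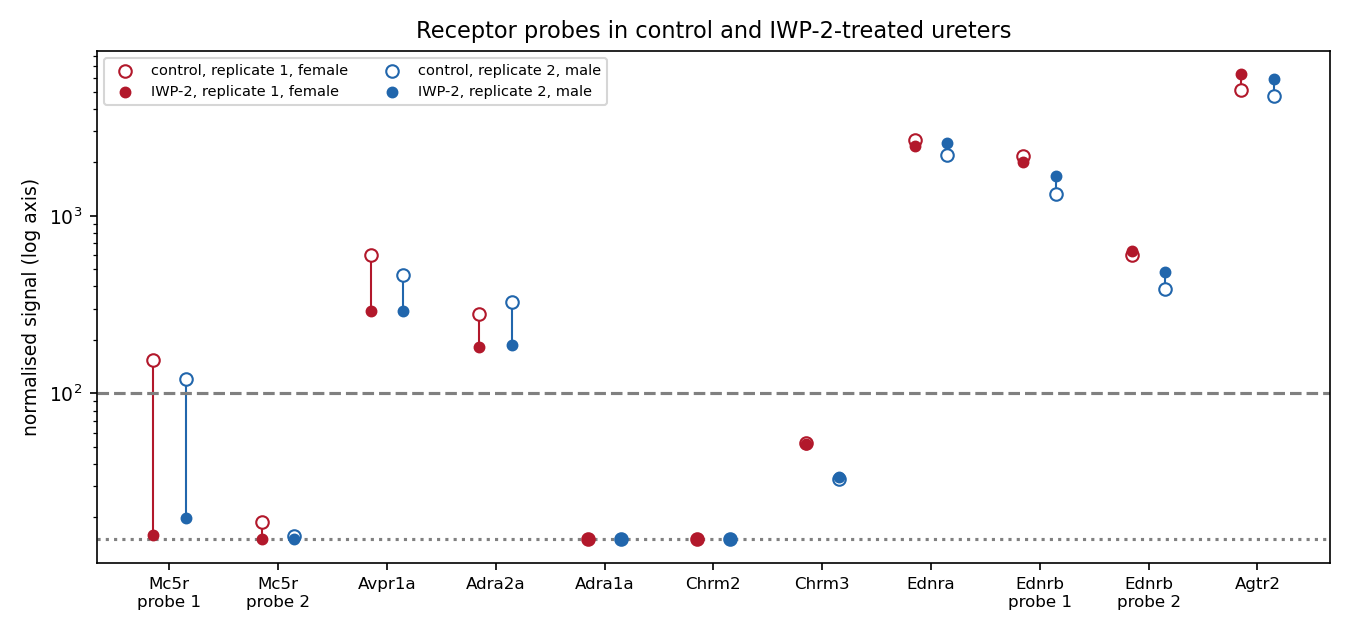
Normalised signal (log axis) of each receptor probe in control (open circles) and IWP-2-treated ureters (filled circles), with a line joining both channels of an array, a dotted line at the floor of 15 and a dashed line at 100. *Mc5r*, *Avpr1a* and *Adra2a* sit lower with IWP-2 in both arrays, *Agtr2* sits higher, and *Adra1a* and *Chrm2* lie at the floor.

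The melanocortin receptor *Mc5r*, which binds melanocyte-stimulating hormone and adrenocorticotropic hormone and is known for its control of exocrine gland secretion, had the largest change of the 9 receptors. Its brighter probe gave a signal of 154 in control and 16.0 with IWP-2 in replicate 1. In replicate 2 it gave 120 in control and 19.9 with IWP-2. The signal with IWP-2 was below the control signal in each array and close to the floor in both. The log2 change was −3.27 in replicate 1 and −2.59 in replicate 2, a mean of −2.93 ± 0.48 (SD, n = 2 arrays) or a 7.62-fold lower signal. Each array carries this probe on 4 spots, and the log2 change ran from −3.48 to −3.14 over the spots of replicate 1 and from −2.70 to −2.46 over those of replicate 2. Every spot was lower with IWP-2, and every spot was still well above background in both channels. Of the 14336 genes, 3 had a lower mean log2 change than *Mc5r*.

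The array holds a second *Mc5r* probe, 2824 bases from the first in the mm9 build. The brighter probe is designed on a predicted non-coding transcript of the gene, and the dimmer one on its protein-coding transcript. The dimmer probe gave 18.8 in control of replicate 1 and 15.7 in control of replicate 2, just above the floor of 15, and both IWP-2 channels were at the floor. With a floor of 1 in its place, the IWP-2 signals were 9.06 and 9.62, which gave log2 changes of −1.05 and −0.70, with a mean of −0.88 ± 0.17 (SE). Both probes were lower with IWP-2 on each of their spots in both arrays, but the size of the change was smaller on the probe of the protein-coding transcript, where it rests on signals near the background. Averaging both probes gave a mean log2 change of −1.56 for the gene.

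The vasopressin receptor *Avpr1a* couples to the release of calcium and is known for the contraction of vascular smooth muscle. It was at 599 in control and 291 with IWP-2 in replicate 1, and at 467 and 290 in replicate 2. In each array the control signal was above the IWP-2 signal. The log2 change was −1.04 and −0.69, a mean of −0.86 ± 0.18 (SE, n = 2 arrays) or a 1.82-fold lower signal. It was lower on all 4 spots of each array, with a range from −1.10 to −0.99 in replicate 1 and from −0.74 to −0.65 in replicate 2. The spots of the arrays thus did not overlap, and the difference between arrays was larger than that between spots of an array. Its probe matches the transcript of the gene at chr10:121890135-121890194 (mm9, plus strand). Of the 51 genes that were lower by the filter, 29 had a larger mean change.

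The adrenoceptor *Adra2a* binds adrenaline and noradrenaline, lowers cyclic AMP and is known as the inhibitory autoreceptor of sympathetic nerve endings. Its signal was 280 in control and 182 with IWP-2 in replicate 1, and 329 and 188 in replicate 2. In each array the IWP-2 signal was below the control signal. The log2 change was −0.62 and −0.81, a mean of −0.72 ± 0.09 (SE, n = 2 arrays) or a 1.64-fold lower signal. In replicate 1, 3 spots were used and ran from −0.69 to −0.58, and in replicate 2 the 4 spots ran from −0.86 to −0.78. Just inside the 1.5-fold threshold, *Adra2a* in replicate 1 had the smallest change of the 3 lower receptors. No receptor lay just outside the threshold on the lower side, since *Ednra* and *Ednrb* came next with −0.10 in replicate 1. The probe lies at chr19:54123363-54123422 (mm9, plus strand). A larger mean change was found for 45 of the 51 genes that the filter called lower.

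**Figure D2:**
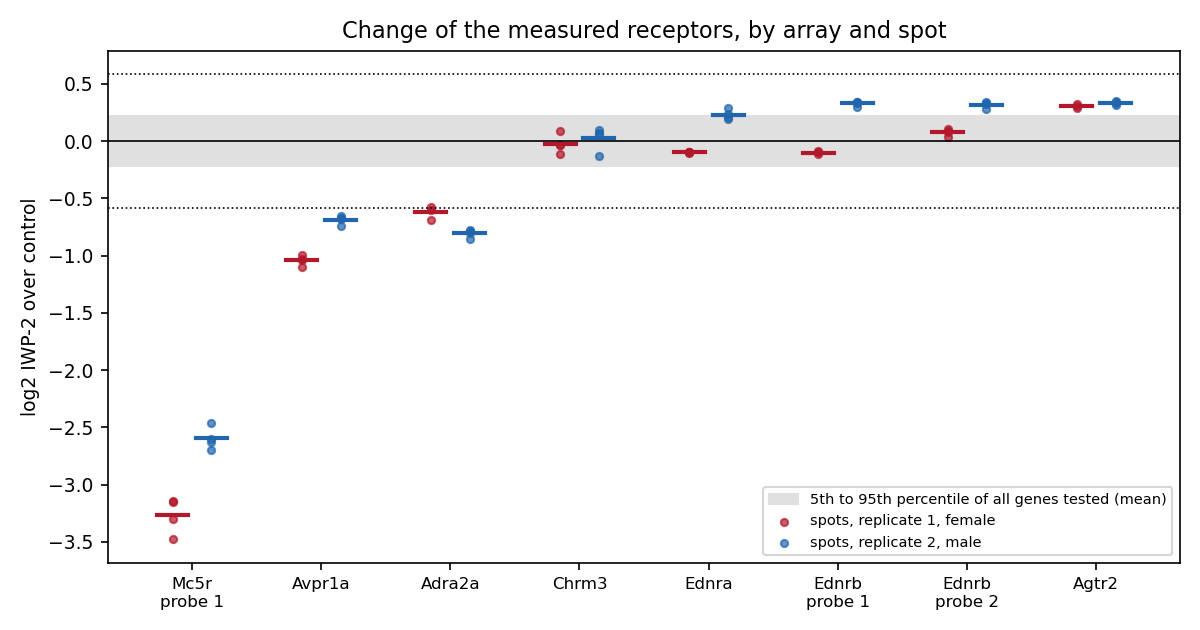
Log2 ratio of IWP-2 over control of the measured receptor probes, with 1 point per spot and a bar at each array's value, the range of the mean log2 change of 90% of the genes in grey and 1.5-fold as dotted lines. The spots of *Mc5r* (brighter probe), *Avpr1a* and nearly all of *Adra2a* lie below the lower dotted line, while *Ednra* and the brighter *Ednrb* probe have their arrays on either side of 0.

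The promoters of *Avpr1a* and *Adra2a* are shown because both genes passed the filter in the same direction and have an entry among the RefSeq promoters used here (GRCm38.p6). Each line gives the 250 bases before the annotated start on the plus strand, 5′ to 3′, for *Avpr1a* at chr10:122448249-122448498 and for *Adra2a* at chr19:54045009-54045258. Capitals mark TATAAA, the letters of a core promoter element that helps to place the start of transcription. This motif was looked up, on the sense strand, after the sequences had been read.
*Avpr1a*: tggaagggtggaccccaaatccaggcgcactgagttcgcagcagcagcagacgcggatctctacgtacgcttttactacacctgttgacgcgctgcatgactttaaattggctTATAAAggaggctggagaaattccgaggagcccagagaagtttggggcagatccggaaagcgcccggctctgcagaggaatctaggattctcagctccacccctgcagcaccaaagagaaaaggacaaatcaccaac
*Adra2a*: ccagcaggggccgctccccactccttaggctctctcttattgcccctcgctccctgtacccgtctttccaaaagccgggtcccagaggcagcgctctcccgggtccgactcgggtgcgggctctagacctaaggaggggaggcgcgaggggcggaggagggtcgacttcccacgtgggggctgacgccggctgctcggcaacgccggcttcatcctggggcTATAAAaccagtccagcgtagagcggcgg
The capitals begin 137 bases before the start in *Avpr1a* and 29 bases before it in *Adra2a*. The G and C content of the stretch was 53.6% for *Avpr1a* and 67.6% for *Adra2a*. Of all 32851 promoters, 300 bases long with 50 bases after the start, 8.32% held TATAAA on the sense strand, as did 2 of the 7 receptors with an entry. The core of the TCF/LEF site, CTTTGA on either strand, was found in 16.0% of all promoters and in 0 of 7 receptors. GACCACCCA, a site of the GLI factors, was found in 0.253% and TGACGTCA, the cyclic AMP response element, in 1.79% of all promoters, each with 0 of 7 receptors. These searches describe letters in a short window.

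The adrenoceptor *Adra1a*, known for contraction of smooth muscle of the urinary tract, was not well above background on any spot of either array. Its signal was at the floor of 15 in all 4 channels, so no change can be given. The muscarinic acetylcholine receptor *Chrm2*, which lowers cyclic AMP, was likewise not well above background on any spot and at the floor in all channels. *Chrm3*, the muscarinic receptor known for contraction of the bladder, was dim but measurable. It was at 52.6 in control and 51.8 with IWP-2 in replicate 1, and at 33.0 and 33.6 in replicate 2. The channels of each array lay close together, with log2 changes of −0.02 and 0.03. The signal was below 100 in every channel, so *Chrm3* was not covered by the filter.

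The endothelin receptors are known for constriction of smooth muscle (*Ednra*) and for their role in endothelium and in neural crest development (*Ednrb*). *Ednra* was at 2662 in control and 2487 with IWP-2 in replicate 1, and at 2204 and 2585 in replicate 2. The log2 change was −0.10 and 0.23, with a mean of 0.07 ± 0.16 (SE, n = 2 arrays). All 4 spots of replicate 1 were lower with IWP-2 and all 4 spots of replicate 2 were higher, so that the arrays differed in direction. The brighter *Ednrb* probe was at 2167 and 2020 in replicate 1 and at 1335 and 1677 in replicate 2. Its log2 change was −0.10 and 0.33, with a mean of 0.11 ± 0.21 (SE). The dimmer *Ednrb* probe, designed on another transcript of the gene, was at 601 and 633 in replicate 1 and at 386 and 481 in replicate 2. It was higher with IWP-2 in both arrays, with log2 changes of 0.08 and 0.32 and a mean of 0.20 ± 0.12 (SE). The *Ednrb* probes thus differed in sign in replicate 1 and agreed in replicate 2. For neither endothelin receptor did the mean change exceed the difference between the arrays.

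The angiotensin II receptor *Agtr2*, which is abundant in fetal mesenchyme, was at 5103 in control and 6302 with IWP-2 in replicate 1, and at 4715 and 5943 in replicate 2. In each array the IWP-2 signal was above the control signal. The log2 change was 0.30 and 0.33, a mean of 0.32 ± 0.01 (SE, n = 2 arrays) or a 1.25-fold higher signal, which is below the threshold of 1.5-fold. The change was higher on all spots of both arrays, from 0.29 to 0.32 in replicate 1 and from 0.31 to 0.35 in replicate 2. Of the 14336 genes, 97.9% had a lower mean log2 change. *Agtr2* was the receptor with the smallest difference between arrays among the 6 with a control signal over 100.

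**Figure D3:**
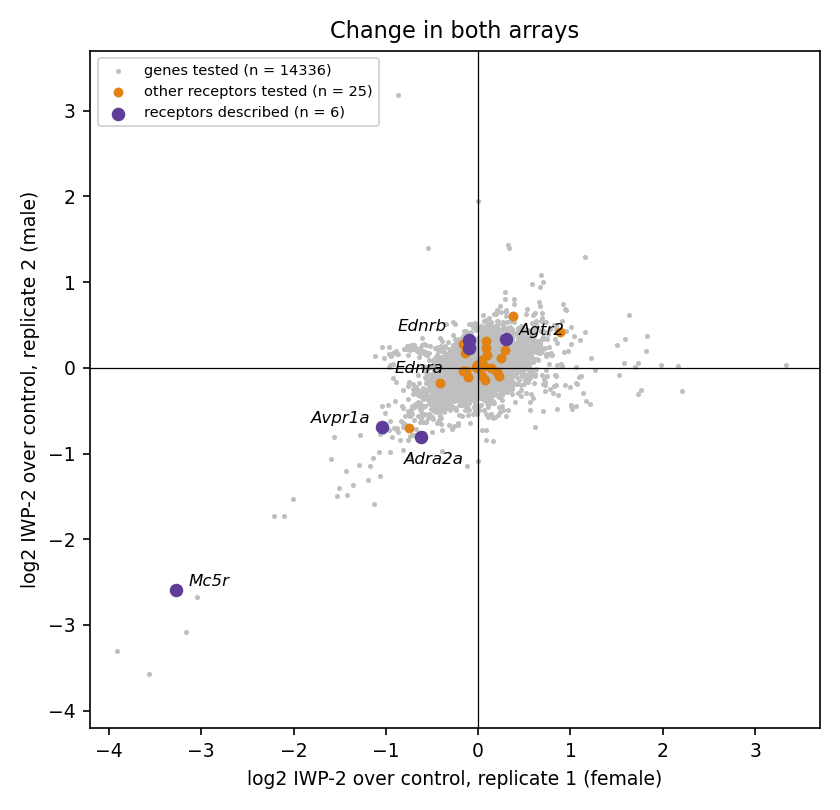
Log2 ratio of IWP-2 over control in replicate 1 (female, horizontal axis) and replicate 2 (male, vertical axis) for 14336 genes (grey), 25 other receptors (orange) and 6 of the receptors described (purple). *Mc5r*, *Avpr1a* and *Adra2a* lie in the lower left quadrant, *Agtr2* in the upper right, and *Ednra* and *Ednrb* left of 0 in replicate 1 and above 0 in replicate 2.

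Signals of cell type markers are given here beside those of the receptors. The summed signal of the 7 fibroblast markers was 121480 in control and 102005 with IWP-2 in replicate 1, and 107343 and 105054 in replicate 2. *Aldh1a2*, which makes retinoic acid and marks the lamina propria, was the 1 marker called by limma among the 37 of 44 that were tested. Its log2 changes were −0.76 and −0.50 (mean −0.63 ± 0.08 limma SE, limma adjusted p = 0.0281). *Thy1*, of the same list, had log2 changes of −0.60 and −0.37 and did not pass the threshold (limma adjusted p = 0.0547). A limma SE is moderated over all genes tested, while the SE given for the receptors comes from their own 2 arrays. The summed signal of the 7 smooth muscle markers was 90693 and 90263 in replicate 1 and 77676 and 90958 in replicate 2, and that of the 4 endothelial markers was 12230 and 11098 in replicate 1 and 10170 and 10691 in replicate 2. These sums do not stand for all of their markers. Of the 7 smooth muscle markers 4 were higher with IWP-2 in both arrays (*Tagln*, *Actg2*, *Des* and *Myocd*), and of the 4 endothelial markers *Pecam1* and *Tek* were higher and *Cdh5* lower in both, so that *Kdr* alone differed in direction between the arrays. The 4 Schwann cell markers summed to 5616 and 3581 in replicate 1 and to 4794 and 5547 in replicate 2. Among them *Sox10* was lower and *S100b* higher with IWP-2 in both arrays. The 8 urothelial markers summed to 123296 and 156331 in replicate 1 and to 150488 and 154651 in replicate 2, and the 4 macrophage markers to 3324 and 3750 and to 3563 and 3942. The 5 neuronal markers summed to 1174 and 1142 and to 887 and 832. Of the fibroblast markers, 5 of 7 were lower with IWP-2 in both arrays and 0 were higher in both. Higher in both were 5 of 8 urothelial markers and the 3 macrophage markers tested, with 0 lower in both. Of the neuronal markers, 2 were lower in both and 0 higher. The part of these cell types in the values of the receptors was not tested.

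The genes whose pair of log2 changes was nearest to that of *Mc5r*, by Euclidean distance over both arrays, were *Notumos* (−3.05 and −2.68, distance 0.23), *Lgr5* (−3.17 and −3.08, distance 0.50) and *Ibsp* (−3.91 and −3.31, distance 0.96). *Lgr5*, a receptor of R-spondins, and *Ibsp*, which encodes a bone matrix protein, both had a lower mean log2 change than *Mc5r*. Nearest to *Avpr1a* were *Ppm1e* (distance 0.05), *Sfrp2* (0.07) and *Shisa2* (0.08). *Sfrp2* encodes a secreted WNT-binding protein, and its log2 changes were −1.03 and −0.75. With 2 arrays such a distance rests on 2 values per gene.

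To set the receptors beside their families, 113 other hormone and transmitter receptors coupled to G proteins were listed, without those for prostaglandins. All were on the array, 60 were well above background in every channel, and 25 had a mean signal over 100 and were tested. In the limma fit over 14336 genes with Benjamini-Hochberg adjustment, 1 of 25 was lower and 0 were higher, against 0.886% and 0.363% (1.25% in either direction) of all genes tested. Over all genes these were 127 lower and 52 higher, and 108 lower and 85 higher with median centring in place of loess. The list leaves out the receptors that were chosen on this contrast, so nothing is read from its counts beside those of all genes. At an unadjusted p under 0.05, 2 of the 25 were lower and 5 higher, against 952 and 899 of all 14336 genes. By the filter of the study 0 of the listed receptors were called. The study itself reports the prostaglandin receptors *Ptger2* and *Ptger3*, which the list leaves out, among the genes lowered by IWP-2. *Npy2r*, a receptor of neuropeptide Y, was the 1 of the 25 that limma called. It fell from 121 to 72.0 in replicate 1 and from 95.2 to 58.6 in replicate 2. Its mean log2 change was −0.73 ± 0.07 (limma SE, limma adjusted p = 0.0095). The call was lost without the filter on dim genes (limma adjusted p = 0.461) and without the array as a block (0.549), and the gene was not tested with the mean over probes. The median of the 25 was 0.05, with 5 below 0 and 10 above 0 in both arrays.

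Within the families of the 9 receptors, most other members were at or near the floor. *Mc1r* and *Mc3r*, *Avpr1b* and *Avpr2*, *Adra1d* and *Adrb1*, and *Chrm1*, *Chrm4* and *Chrm5* were at the floor of 15 in all 4 channels. *Mc2r*, the adrenocorticotropic hormone receptor, was at 56.4 and 44.2 in replicate 1 and at 52.6 and 54.7 in replicate 2. *Adra1b* was at 532 and 586 in replicate 1 and at 627 and 626 in replicate 2. Its mean log2 change was 0.07 ± 0.07 (limma SE, limma adjusted p = 0.874). *Agtr1a*, the main pressor receptor of angiotensin II, was at 1137 and 1011 in replicate 1 and at 758 and 919 in replicate 2. Its log2 changes of −0.17 and 0.28 differed in direction, as those of *Ednra* did. *Calcrl*, the receptor of adrenomedullin, was at 128 and 236 in replicate 1 and at 135 and 181 in replicate 2. It had the highest mean of the 25 (0.66 ± 0.11 limma SE) and did not pass the threshold (limma adjusted p = 0.0594). The UDP-sugar receptor *P2ry14* did not pass it either (0.49 ± 0.08 limma SE, limma adjusted p = 0.0529). Both were called higher with median centring (limma adjusted p = 0.0437 for *Calcrl* and 0.0411 for *P2ry14*) and with normexp (0.0212 and 0.0223).

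**Figure D4:**
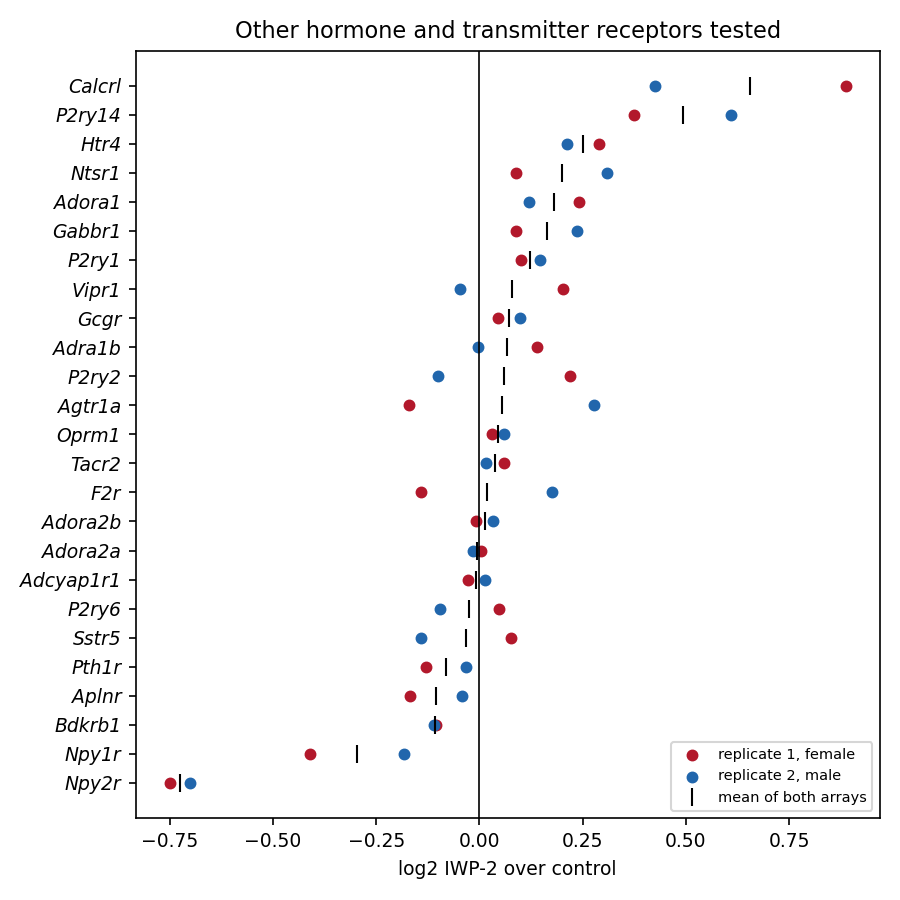
Log2 ratio of IWP-2 over control (horizontal axis) of the 25 other receptors tested, with 1 point per array and a tick at the mean of both. *Npy2r* at −0.73 is the lowest and the 1 that passed the limma threshold, and *Calcrl* at 0.66 is the highest.

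Of 41 ligands of these receptors and enzymes of their synthesis and breakdown, 22 were tested, and limma called 0 lower and 0 higher. At an unadjusted p under 0.05, 2 of the 22 were lower and 1 higher, against 952 and 899 of all 14336 genes. The filter called 0. *Edn1*, the ligand of both endothelin receptors, was at 113 and 86.1 in replicate 1 and at 110 and 56.0 in replicate 2. The IWP-2 signal was below the control signal in each array. The log2 changes of *Edn1* were −0.39 and −0.97, with a mean of −0.68 ± 0.13 (limma SE, limma adjusted p = 0.0813). With normexp it was called lower (limma adjusted p = 0.0347). The angiotensin-degrading aminopeptidase *Anpep* had a mean of −0.30 (limma adjusted p = 0.115), and the angiotensin precursor *Agt* had one of 0.23 (limma adjusted p = 0.283). *Avp*, the precursor of vasopressin, was at the floor in all channels, and *Pomc*, the precursor of the melanocortins, was at 74.5 and 78.0 in replicate 1 and at 76.9 and 69.0 in replicate 2. *Dbh*, which makes noradrenaline, was at 485 and 502 in replicate 1 and at 327 and 308 in replicate 2. The median of the 22 was −0.0009.

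Downstream of the receptors, 65 of 81 genes for G protein subunits, RGS proteins, receptor kinases, arrestins, adenylyl cyclases, phospholipases C and effectors were tested. Limma called 0 lower and 1 higher, and the filter called 0. At an unadjusted p under 0.05, 3 of the 65 were lower and 4 higher, against 952 and 899 of all 14336 genes. *Rgs5*, which shortens G protein signals and is known from pericytes and vascular smooth muscle, rose from 3696 to 5274 in replicate 1 and from 4372 to 5802 in replicate 2. Its mean log2 change was 0.46 ± 0.07 (limma SE, limma adjusted p = 0.0396). The call was lost in 4 of 8 other fits, with the mean over probes (limma adjusted p = 0.073), without normalisation within the array (0.0551), without the filter on dim genes (0.661) and without the array as a block (0.549). The median of the 65 was 0.02, close to the −0.01 of all genes tested.

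The values of the receptors were also computed with other processing of the arrays. Over these, the mean log2 change ran from −0.87 to −0.82 for *Avpr1a*, from −0.73 to −0.67 for *Adra2a* and from 0.32 to 0.36 for *Agtr2*. That of *Mc5r* ran from −2.96 to −1.56, where the latter is the mean over both probes, with which the gene no longer passed the filter. With normexp background correction in place of the processed signals *Mc5r* was at −2.24, and *Adra2a* no longer reached 1.5-fold in replicate 1. At a threshold of 2-fold, *Mc5r* alone of the 9 was lower, and at a control signal over 200, *Avpr1a* and *Adra2a* were.

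**Figure D5:**
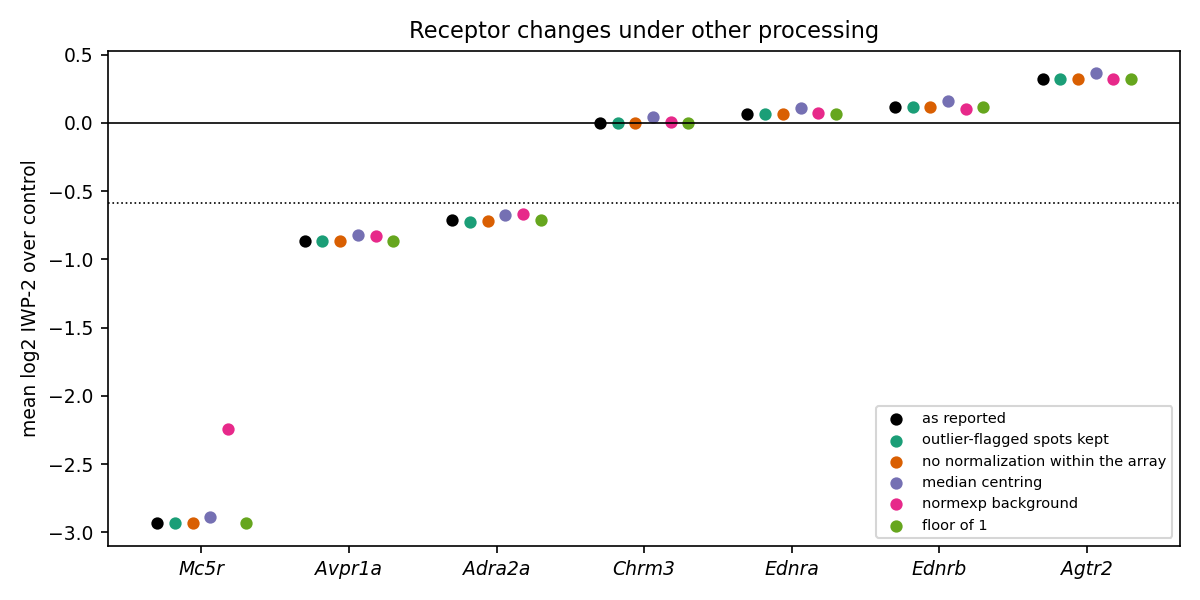
Mean log2 ratio of IWP-2 over control of the 7 measured receptors as reported and under 5 other ways of processing the signals, with a dotted line at 1.5-fold lower. *Mc5r* moves to −2.24 with normexp background correction, and the points of each other receptor lie close together.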

How the data were processed

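RNA of 2 pools of IWP-2-treated and 2 pools of control ureters (5 or 6 ureters each, per the study's methods) was hybridised on 2 arrays. Groups, dyes and sex came from the sample labels. Intensities are the processed signals the authors deposited, for which Feature Extraction (12.2.0.7 per the file headers, 10.7.3.1 per the labels) subtracted the background, corrected spatial trends and normalised the dyes. The log10 ratio of red over green that the authors deposited was used only to check directions. The deposited mean and background intensities were used for normexp only. The deposited series table holds a score, a signed fold change of IWP-2 over control with 1 decimal, which correlated with the log2 ratios here at 0.979 and 0.966 over 14051 probes.

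Control spots (17263 per array) and outlier-flagged spots were left out. Within arrays, loess was applied (span 0.3, 4 iterations, limma 3.58.1 in R 4.3.3). The mean was taken over each probe's spots, values under 15 were set to this floor, and log2 was taken. Of several probes of a gene, the brightest was taken. Genes with a mean signal over 100 in at least 1 condition were tested against 0 by limma (lmFit and eBayes, 1 residual degree of freedom) with Benjamini-Hochberg adjustment and a threshold of 0.05. The p-values and limma SEs rest on a variance moderated over all genes tested, not only on a gene's own spread between 2 arrays. For the receptors, the SE comes from their own 2 values. The script was tested on simulated data. The receptors and gene lists were chosen with earlier results of these data known. Named genes are the 9 receptors, list genes called by limma, the 3 genes nearest to *Mc5r* and *Avpr1a*, and *Axin2*, *Porcn*, *Xist* and *Ddx3y* as checks. Other genes were named after their values were seen. The alternatives were kept flags, no or median normalisation, normexp (offset 50), a floor of 1, the mean over probes, other signal and fold thresholds, no filter on dim genes, no block and each array alone. Coordinates of probes are those of the array files (mm9). All 9 symbols and all 11 probe transcripts matched RefSeq.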

Additional observations from a re-analysis of the deposited data

Results flagged for a closer look

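*Ednra* and the brighter *Ednrb* probe were picked out because the female array and the male array had opposite signs, each beyond 2 standard errors between spots. The log2 change in replicate 1 minus that in replicate 2 was −0.33 for *Ednra* and −0.43 for *Ednrb*. The difference was not tested, and sex and dye orientation cannot be told apart. Opposite signs, without the condition on spots, were found in 45.2% of the 14336 genes. The arrays differed by at least as much as for *Ednra* in 7.25% of them and as for *Ednrb* in 3.42%. Standard errors between spots cover repeat spots of the same pool, not differences between pools. The dimmer *Ednrb* probe had the same sign in both arrays.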

How the results depend on the processing

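No called value changed direction. The 3 receptors stayed lower by the filter with either array alone, and 1 did at 2-fold. Over all genes, the filter called 51 lower and 11 higher. Asking for a control signal well above background instead gave 89 and 25, a 2-fold threshold 19 and 0, and 1 array alone 78 to 160 and 25 to 112. Limma called 127 lower and 52 higher. The mean over probes gave 50 and 17, and normexp 257 and 171. Median centring gave 108 lower and 85 higher, and no normalisation 85 and 32. Without the filter on dim genes both counts were 0 (1149 lower and 880 higher at an unadjusted p under 0.05). With the replicate block left out, 4 channels compared as 2 against 2, limma called 8 lower and 0 higher (410 higher unadjusted). The array is the pair here, so the block is part of the design. In the lists, *Npy2r* was not tested with the mean over probes (0 other receptors lower), and its limma adjusted p was 0.461 without the dim filter and 0.549 without the block (0 called in each; over the other fits 0.00336 to 0.0175). For *Rgs5* these were 0.073, 0.661 and 0.549, and 0.0551 without normalisation (0 signal transduction genes higher in each; over the other fits 0.0144 to 0.0439). Among other receptors, median centring gave 2 higher (*Calcrl* and *P2ry14*) and normexp 3 (these and *Agtr1b*), and among ligands normexp gave 1 lower, *Edn1*. The causes were not tested. Signals near the background limit *Mc5r*, and 2 arrays limit all values.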

Other observations

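Between the arrays, control ureters differed for some receptors. *Ednrb* was at 2167 in the female and 1335 in the male control on its brighter probe and at 601 and 386 on its dimmer one, and *Chrm3* was at 52.6 and 33.0. *Adra2a* was higher in the male control, at 329 against 280. The arrays were not normalised to each other, and sex, dye and array cannot be told apart, so no change is read from these values. *Agtr1b*, below the signal needed for a test, was at 17.9 in control and 26.9 with IWP-2 in replicate 1 and at 15 and 21.6 in replicate 2. With normexp it was bright enough for the test and was called higher, with a mean log2 change of 0.42 (limma adjusted p = 0.0253).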
